A study of Mus musculus with 6 samples.

Results

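The sarcomeric myosin heavy chains are the motor proteins of the thick filament of striated muscle, and the isoform in a fibre goes with its contraction speed. Their genes were described here in RNA-seq counts of injured mouse muscle. The members were the rows of the count table whose Ensembl identifiers map to the symbols Myh1, Myh2, Myh3, Myh4, Myh7, Myh7b and Myh8, and all 7 had a row among 16289. The muscle was tibialis anterior, which lifts the foot, of 12-week-old wild-type male C57BL/6J mice, taken 14 days after glycerol, an agent that destroys fibres and is followed by regeneration and fat deposition, was injected into it. A group of 3 mice had glycerol with a control treatment (glycerol) and a group of 3 had glycerol with melatonin, the pineal hormone (glycerol+melatonin), so every library came from injured muscle and there was no uninjured group. The series' text calls the 3 samples of each group biological replicates. The sources used here give neither the dose and schedule of melatonin nor the nature of the control treatment. The RNA extraction text names longissimus dorsi, a muscle of the back, where every tissue label names tibialis anterior.

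In adult mouse limb muscle, Myh7 marks slow type I fibres, Myh2 fast oxidative IIa fibres, Myh1 intermediate IIx fibres and Myh4 the fastest, glycolytic IIb fibres, the main type of the tibialis anterior. Myh3 (embryonic) and Myh8 (neonatal) are the chains of developing fibres and come back for a time when adult fibres regenerate, before adult isoforms replace them. Myh7b is an ancient member with low expression in limb muscle, and Myh7b and Myh7 each host a microRNA.

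Library totals lay between 39310361 and 48879045 counts. CPM below are counts per 1000000 of a library total scaled by TMM (a factor that corrects for the make-up of the library), and all fold changes are glycerol+melatonin over glycerol. Across the table, 12 of 16259 genes tested passed an adjusted p under 0.05 in edgeR's quasi-likelihood test. The 5 markers of skeletal fibres (Acta1, Ckm, Des, Tnnt3 and Ttn) were abundant in every library, with summed levels of 83586, 88268 and 75667 CPM with glycerol and 84496, 69008 and 54451 CPM with glycerol+melatonin. Their fold changes were below 0 in 5 of 5 (48.3% of all genes), with a median of -0.25 against 0.02 over all genes. In edgeR, DESeq2 and limma-voom 0 of 5 passed, where 0.0738%, 5.01% and 1.22% of all genes did. By an unadjusted p under 0.05 the count was 0 of 5 in each tool, where 19.5%, 19.6% and 27.8% of all genes fell under that value. In whole muscle, fewer fibres of a type and less RNA per fibre cannot be told apart, and the part of the fibre markers in the results below was not tested. Markers of fibro-adipogenic progenitors, the connective tissue cells of muscle, had summed levels of 739, 1090 and 970 CPM with glycerol and 643, 684 and 635 CPM with glycerol+melatonin, sums that are mostly Dcn. Of these 5, Dcn, Hsd11b1 and Pdgfra were lower without overlap, as 12.5% of all genes were, while Cd34 (0.19) and Ly6a (0.09), named after their values were seen, had log2 fold changes above 0.

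On GRCm38, 5 of the 7 genes lay in 1 cluster on chromosome 11, all on the plus strand, in the order Myh3 (chr11:67078300-67102291), Myh2 (chr11:67171027-67197517), Myh1 (chr11:67200052-67224575), Myh4 (chr11:67238029-67260446) and Myh8 (chr11:67277124-67308634). Myh7 (chr14:54970684-54994626) lay on the minus strand beside the heart gene Myh6, and Myh7b (chr2:155611212-155634307) on the plus strand of chromosome 2. The longest coding transcripts ran from 6016 bases (Myh4) to 6230 bases (Myh7), with 39 to 42 exons, so the members differed little in length.

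**Figure D1:**
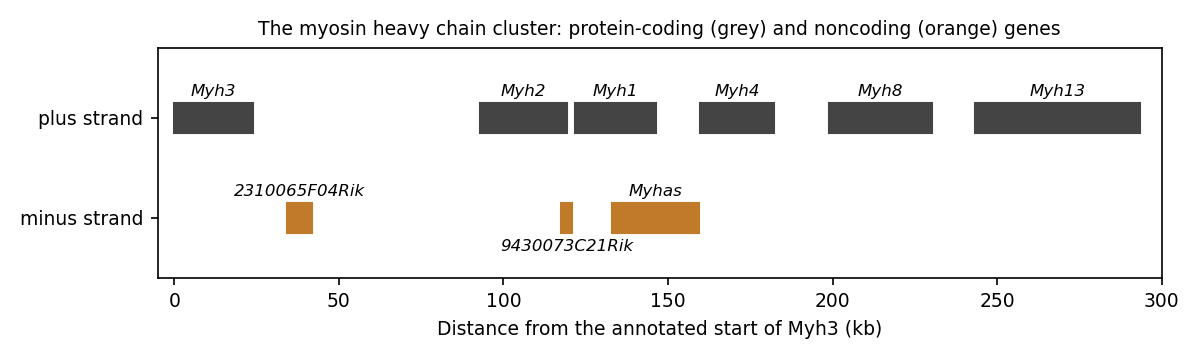
Map of the myosin heavy chain cluster, with distance from the annotated start of Myh3 in kilobases on the horizontal axis and the strand on the vertical axis; grey bars are protein-coding genes and orange bars noncoding genes. The 5 members of the cluster lie on the plus strand, followed by Myh13, and the noncoding neighbours 2310065F04Rik, 9430073C21Rik and Myhas on the minus strand.

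The promoters of the 3 adult fast genes are shown because these genes made up at least 98.7% of the myosin heavy chain transcripts of a library and their fold changes differed in sign. Each line gives 250 bases before to 50 after the RefSeq start on the plus strand of GRCm38.p6. Capitals mark every match to TATAAA or to the MEF2 motif on either strand, and the longest run that the 3 promoters share.
Myh4 promoter (chr11:67237562-67237861): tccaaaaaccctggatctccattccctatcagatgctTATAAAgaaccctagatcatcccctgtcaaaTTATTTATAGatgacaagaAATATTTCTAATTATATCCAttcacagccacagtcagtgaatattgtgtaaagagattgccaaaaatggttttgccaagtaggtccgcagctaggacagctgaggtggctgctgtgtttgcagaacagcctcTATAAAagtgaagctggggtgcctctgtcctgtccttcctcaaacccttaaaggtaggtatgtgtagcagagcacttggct
Myh1 promoter (chr11:67199852-67200151): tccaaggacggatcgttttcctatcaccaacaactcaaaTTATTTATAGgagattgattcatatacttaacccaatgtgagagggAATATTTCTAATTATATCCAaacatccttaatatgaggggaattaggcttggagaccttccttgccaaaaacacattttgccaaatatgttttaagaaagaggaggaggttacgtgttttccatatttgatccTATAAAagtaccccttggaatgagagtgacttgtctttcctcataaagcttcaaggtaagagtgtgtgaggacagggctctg
Myh2 promoter (chr11:67170777-67171076): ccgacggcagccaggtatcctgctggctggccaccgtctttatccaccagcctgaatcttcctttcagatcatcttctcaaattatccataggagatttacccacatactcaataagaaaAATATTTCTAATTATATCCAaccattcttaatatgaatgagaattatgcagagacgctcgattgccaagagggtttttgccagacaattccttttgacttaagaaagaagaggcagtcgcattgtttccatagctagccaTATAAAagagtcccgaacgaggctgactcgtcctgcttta

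The shared run was 20 bases long (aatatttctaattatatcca), began 163 bases before the start in Myh4, 165 in Myh1 and 130 in Myh2, and occurred in 3 of 32851 RefSeq mouse promoters of that length, those of these 3 genes. A stretch of 14 of its bases (ttctaattatatcc) was also in the promoter of Myh8 and in 4 of 32851 promoters in all. The motifs searched were TATAAA, the E-box CANNTG and the MEF2 motif, on both strands. A MEF2 match was present in Myh4, Myh1 and Myh8, which is 3 of 7 members, and in 1.86% of all promoters. In each of the 3 it lay on the minus strand and held a TATAAA match on that same strand, which was the only TATAAA match of Myh8. TATAAA occurred in 5 of 7 members (all but Myh7 and Myh7b) and in 13.6% of all promoters, and an E-box in 5 of 7 (all but Myh1 and Myh2) and in 72.3%. A match is a description of letters and not a bound site. The RefSeq and GENCODE starts differed by 217 bases for Myh4 and 50 for Myh1, and were the same for Myh2, whose TATAAA lay at position 11 after its start.

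The coding sequences bear on how well the isoforms can be counted apart. Over aligned bases, identity ran from 68.8% (Myh1 with Myh7b) to 91.0% (Myh1 with Myh2), and Myh4 was 90.1% identical to Myh1. The longest run without a difference among Myh1, Myh2, Myh4 and Myh8 was 109 bases and lay in exon 23 of Myh4 and exon 24 of Myh1. It is shown for these 2 genes (plus strand), with the shared bases in capitals and 10 bases on either side in lower case.
Myh4 shared run (chr11:67252214-67252342): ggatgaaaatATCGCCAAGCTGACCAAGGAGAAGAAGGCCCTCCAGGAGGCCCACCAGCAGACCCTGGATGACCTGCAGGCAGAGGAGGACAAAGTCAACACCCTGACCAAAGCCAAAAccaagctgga
Myh1 shared run (chr11:67213595-67213723): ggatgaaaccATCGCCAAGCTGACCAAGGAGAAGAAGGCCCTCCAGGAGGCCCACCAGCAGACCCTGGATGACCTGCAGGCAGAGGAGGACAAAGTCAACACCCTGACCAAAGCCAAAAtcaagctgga

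By contrast, the 60 bases of coding sequence least alike among all 7 members, inside 1 exon of each, had a mean pairwise identity of 57.5%, against 79.2% over all gap-free columns. They are shown because reads from such a stretch can be told apart between members. Capitals mark the bases that differ from Myh4, which is written in lower case. The strand is that of each gene, minus for Myh7.
Myh4 window (chr11:67248693-67248752): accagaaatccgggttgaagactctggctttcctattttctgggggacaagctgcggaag
Myh1 window (chr11:67209100-67209159): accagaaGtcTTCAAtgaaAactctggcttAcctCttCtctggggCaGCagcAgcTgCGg
Myh2 window (chr11:67181282-67181341): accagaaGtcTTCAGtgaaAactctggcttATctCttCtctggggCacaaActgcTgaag
Myh8 window (chr11:67289774-67289833): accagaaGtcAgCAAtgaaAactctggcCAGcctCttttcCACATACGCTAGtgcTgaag
Myh3 window (chr11:67089065-67089124): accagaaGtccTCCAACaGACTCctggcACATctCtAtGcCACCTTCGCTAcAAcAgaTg
Myh7 window (chr14:54987224-54987283): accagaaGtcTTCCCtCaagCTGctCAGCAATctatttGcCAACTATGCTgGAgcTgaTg
Myh7b window (chr2:155622504-155622563): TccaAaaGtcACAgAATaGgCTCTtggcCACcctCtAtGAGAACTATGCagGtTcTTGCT

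Of all 50-base windows in the longest transcript, 26.1% of Myh1, 26.7% of Myh2, 18.6% of Myh4 and 19.9% of Myh8 also occurred in another member. For windows of 150 bases the shares were 2.49%, 2.06%, 0.511% and 0.533%. Myh3 shared 3.66% of its 50-base windows, Myh7 0.210% and Myh7b 0%. The sources used here do not state the read length or the handling of reads that match more than 1 gene, so a part of the counts of Myh1, Myh2, Myh4 and Myh8 could have been assigned to another of the 4 or dropped.

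Per length of transcript, the members spanned a wide range of levels. Mean levels over the 6 libraries were 3557 CPM per kilobase for Myh4 (range 2080 to 5119), 1372 for Myh1 (963 to 1738), 134 for Myh2 (76.2 to 209) and 25.4 for Myh8 (19.7 to 32.9). Myh3 was at 8.61 CPM per kilobase (3.16 to 14.6), Myh7 at 3.00 (0.454 to 9.10) and Myh7b at 0.164 (0.0682 to 0.404). The ranges of neighbours in this order did not overlap, except those of Myh3 and Myh7. Myh7 was above Myh3 in glycerol mouse 1 (9.10 against 8.37 CPM per kilobase) and below it in the other 5 libraries. By mean CPM, Myh4 ranked 4 and Myh1 19 among all genes tested, while Myh7b ranked 13851.

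**Figure D2:**
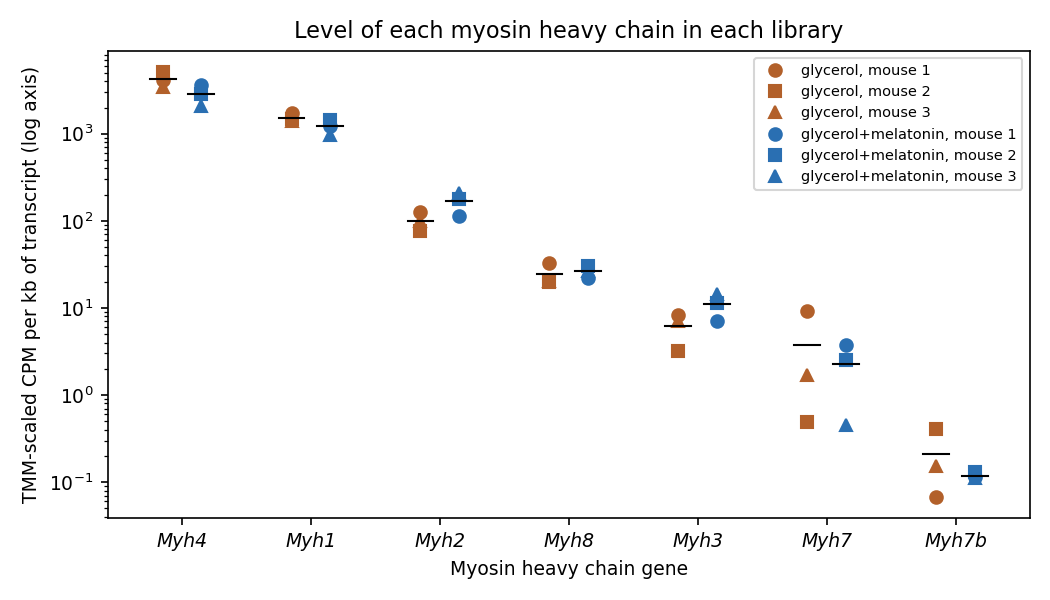
Level of each myosin heavy chain gene in TMM-scaled CPM per kilobase of its longest coding transcript (log axis); points are the 6 libraries and black lines the group means. Myh4 and Myh1 lie between 963 and 5119 in every library, and Myh7 shows the widest spread.

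No member passed in the comparison of glycerol+melatonin with glycerol. Of the 7, 0 passed an adjusted p under 0.05 in edgeR (percent of all genes called: 0.0738), and 0 passed in DESeq2 (5.01% of genes called) or limma-voom (1.22%). At an unadjusted p under 0.05, edgeR counted 1 of 7 (Myh2), where 19.5% of all genes fell under that value. DESeq2 counted 3 of 7 (Myh2, Myh3 and Myh4) against 19.6% of all genes, and limma-voom 2 of 7 against 27.8%. The CPM of the groups overlapped for 7 of 7 members, whereas they did not overlap for 26% of all genes. The estimates were below 0 for 4 members, Myh4, Myh1, Myh7 and Myh7b, and above 0 for 3, Myh2, Myh3 and Myh8, of which Myh8 was at -0.01 without glycerol mouse 2.

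Myh4, the IIb chain, was at 25196, 30795 and 20832 CPM with glycerol and at 21930, 17108 and 12516 CPM with glycerol+melatonin. Mouse 1 of the glycerol+melatonin group lay above the lowest glycerol library, and the other 2 lay below all 3. The log2 fold change was -0.58 ± 0.31 (SE; 95% interval -1.29 to 0.14), with an adjusted p of 0.343 in edgeR. Group means were 25607 ± 4994 and 17185 ± 4707 CPM (SD, n = 3).

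Myh1, the IIx chain, was at 10572, 8936 and 8420 CPM with glycerol and at 7497, 8761 and 5855 CPM with glycerol+melatonin. The groups overlapped in 1 library, glycerol+melatonin mouse 2. Its log2 fold change was -0.34 ± 0.25 (95% interval -0.91 to 0.24, edgeR adjusted p = 0.475).

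Myh2, the IIa chain, showed the opposite order. Its level was 766.6, 463.8 and 605.6 CPM with glycerol and 696.4, 1094 and 1269 CPM with glycerol+melatonin. Mice 2 and 3 of the glycerol+melatonin group stood above every glycerol library, and mouse 1 stood among them. The log2 fold change was 0.74 ± 0.28 (95% interval 0.10 to 1.37), a 1.67-fold estimate. The unadjusted p was 0.0276 and the adjusted p 0.210 in edgeR, so the difference did not pass over all genes.

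Myh3, the embryonic chain, was at 50.5, 19.1 and 42.6 CPM with glycerol and at 43.1, 68.2 and 88.0 CPM with glycerol+melatonin. Glycerol mouse 2 was the lowest library and glycerol+melatonin mouse 3 the highest, a 4.61-fold range. The log2 fold change was 0.83 ± 0.37 (95% interval -0.02 to 1.68, edgeR adjusted p = 0.266).

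Myh8, the neonatal chain, was at 202.2, 121.2 and 126.1 CPM with glycerol and at 134.4, 188.0 and 165.2 CPM with glycerol+melatonin, the highest library being glycerol mouse 1. Its log2 fold change was 0.12 ± 0.24 (95% interval -0.42 to 0.66, edgeR adjusted p = 0.816). Both developmental chains had counts in every library 14 days after injury. Myh3 stood at 25.5, 16.0 and 34.5 transcripts per 100 of Myh8 (both per length) with glycerol and at 32.7, 37.0 and 54.3 with glycerol+melatonin.

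Myh7, the slow chain, varied most. It had 56.7, 3.09 and 10.6 CPM with glycerol (2294, 134 and 432 counts) and 23.4, 15.6 and 2.83 CPM with glycerol+melatonin (1025, 848 and 133 counts). The highest library exceeded the lowest 20.03-fold, and both groups held a library near 3 CPM. The log2 fold change of -0.75 ± 0.98 had an interval from -2.99 to 1.50 (edgeR adjusted p = 0.702), and without glycerol mouse 1 it was 1.03.

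Myh7b was near the limit of measurement, with 17, 108 and 39 counts with glycerol and 31, 44 and 32 with glycerol+melatonin, or 0.420 to 2.49 CPM. Glycerol mouse 2 was the highest and the other 5 libraries lay below 1 CPM. The log2 fold change was -0.81 ± 0.57 (95% interval -2.11 to 0.48, edgeR adjusted p = 0.445), and it was 0.09 without glycerol mouse 2.

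**Figure D3:**
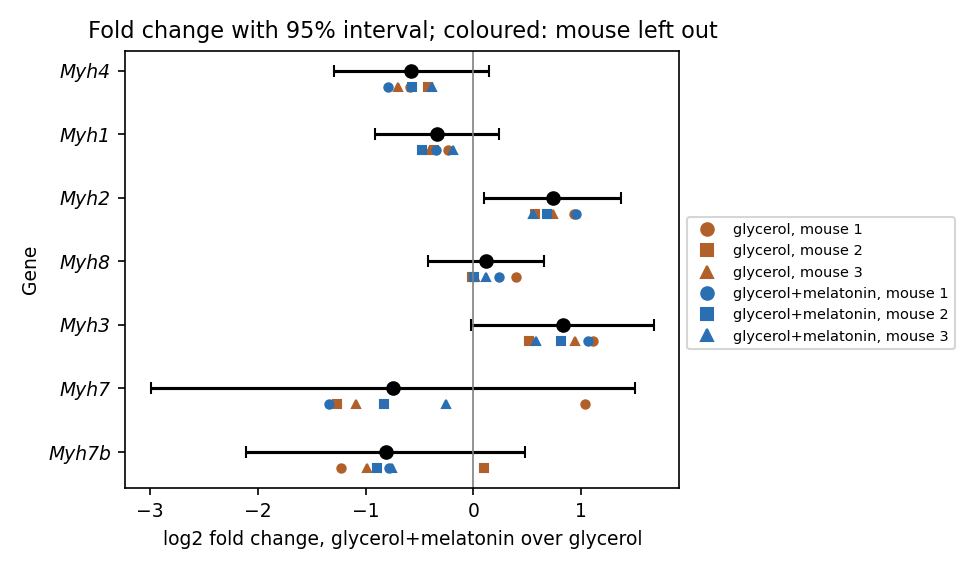
Log2 fold change of each member, glycerol+melatonin over glycerol (horizontal axis; black point and bar, estimate and 95% interval), with the value after leaving out each mouse in turn as coloured symbols below it. The interval of Myh2 alone leaves out 0, and the symbols of Myh8, Myh7 and Myh7b fall on both sides of 0.

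Summed as 1 row, which removes the assignment of reads among the 4 most alike genes, Myh1, Myh2, Myh4 and Myh8 had 36730, 40314 and 29983 CPM with glycerol and 30263, 27154 and 19805 CPM with glycerol+melatonin. The sums overlapped in 1 glycerol+melatonin library, and their log2 fold change was -0.47 (edgeR adjusted p = 0.405). The 7 members took 3.20%, 3.58% and 3.12% of all counts with glycerol and 2.93%, 3.08% and 2.27% with glycerol+melatonin. The groups did not overlap, with means of 3.30% ± 0.248 and 2.76% ± 0.431 (SD, n = 3), and the exact two-sided permutation p was 0.1, the smallest that 3 against 3 libraries allow. Without glycerol+melatonin mouse 3 the difference shrank from -0.54 to -0.30 percentage points. The gap between the groups was narrow (3.12% against 3.08%), and these percentages use library totals without TMM scaling. On another scale, the TMM-scaled CPM of single genes, 12.5% of all genes tested were lower without overlap.

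The isoform share of a library is the count of a member divided by its transcript length, over the same sum for all 7, so that it does not depend on the scaling of the library. Myh4 held 68.6%, 76.5% and 69.6% of the myosin heavy chain transcripts with glycerol and 72.5%, 63.1% and 63.2% with glycerol+melatonin. Means were 71.6% ± 4.32 and 66.3% ± 5.44 (SD, n = 3), with an exact permutation p of 0.3 (0.525 adjusted over the 7 isoforms). The difference of -5.32 percentage points was -2.85 without glycerol mouse 2 and -8.47 without glycerol+melatonin mouse 1. Myh1 held 28.5%, 21.97% and 27.8% with glycerol and 24.5%, 31.95% and 29.2% with glycerol+melatonin. Its difference of 2.48 percentage points was 0.417 without glycerol mouse 2, 0.787 without glycerol+melatonin mouse 2 and 4.50 without glycerol+melatonin mouse 1. The 2 groups overlapped for both chains, and in each library Myh4 stood first and Myh1 second.

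Myh2 was the only isoform whose shares did not overlap between the groups. Its share was 2.06%, 1.14% and 2.001% with glycerol and 2.28%, 3.99% and 6.33% with glycerol+melatonin. Means were 1.74% ± 0.516 and 4.201% ± 2.04 (SD, n = 3). The exact two-sided permutation p was 0.1, the smallest this design allows, and 0.467 after adjustment over the 7 isoforms. The gap between groups was narrow, as glycerol+melatonin mouse 1 stood only just above glycerol mouse 1. By CPM the groups overlapped for Myh2, and 26% of all genes did not overlap.

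Set against the faster chains, Myh2 had 3.01, 1.49 and 2.88 transcripts per 100 of Myh4 with glycerol and 3.14, 6.33 and 10.03 with glycerol+melatonin. Per 100 transcripts of Myh1, the values were 7.25, 5.19 and 7.19 with glycerol and 9.29, 12.5 and 21.7 with glycerol+melatonin. Neither ratio overlapped between the groups. Both were chosen after the values were seen and are given with no test.

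As classes, the adult fast chains (Myh1, Myh2 and Myh4) held 99.4% ± 0.235 of the transcripts with glycerol and 99.0% ± 0.311 with glycerol+melatonin (SD, n = 3), and never less than 98.7%. The developmental chains (Myh3 and Myh8) held 0.676%, 0.342% and 0.554% with glycerol and 0.577%, 0.929% and 1.26% with glycerol+melatonin. The groups overlapped in glycerol+melatonin mouse 1, and the exact permutation p was 0.2 (0.4 adjusted over the 4 classes). The slow chain Myh7 ranged from 0.00741% to 0.149% over all 6 libraries and Myh7b from 0.00112% to 0.00603%, with exact permutation p of 0.9 and 0.8.

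**Figure D4:**
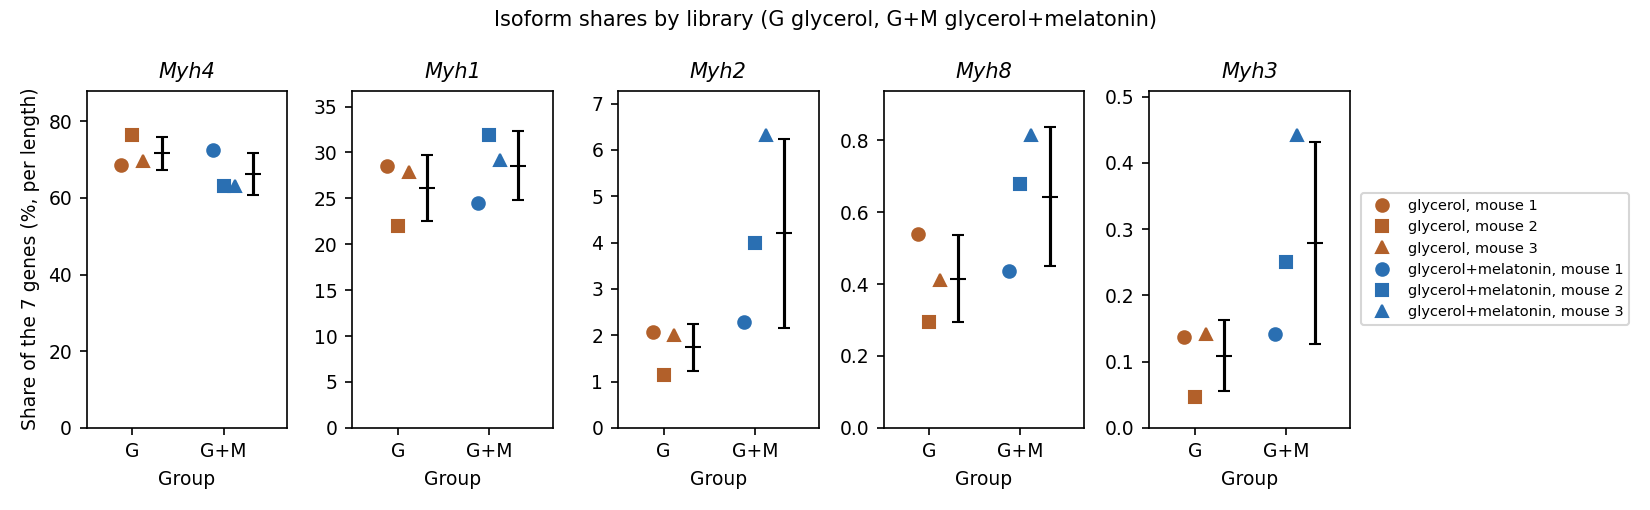
Share of each isoform among the transcripts of the 7 genes, in percent per length (vertical axes from 0, 1 scale per gene), by group; points are mice and black bars mean ± SD. The Myh2 share is 2.28% to 6.33% with glycerol+melatonin, above the 1.14% to 2.06% with glycerol, while the groups overlap for Myh4, Myh1, Myh8 and Myh3.

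Glycerol mouse 2 combined the highest Myh4 of all 6 libraries with the lowest Myh2, Myh3 and Myh8. Glycerol+melatonin mouse 3 had the lowest Myh4, Myh1 and Myh7 together with the highest Myh2 and Myh3. Glycerol+melatonin mouse 1 had shares of Myh2 (2.28%) and Myh3 (0.142%) close to the glycerol libraries.

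The slow fibre partners are the proteins that usually accompany Myh7 in type I fibres. Of 10 tested, 7 had a fold change above 0, as 51.7% of all genes did, with a median of 0.44 against 0.02 over all genes. The 3 below 0 were Atp2a2, Tpm3 and Casq2. In edgeR, DESeq2 and limma-voom alike 0 passed and 3 had an unadjusted p under 0.05, where the shares of all genes were 19.5%, 19.6% and 27.8%. Myl3, a slow light chain, was at 79.1, 36.6 and 73.2 CPM with glycerol and at 117, 105 and 120 CPM with glycerol+melatonin (log2 fold change 0.86 ± 0.27). Tnni1, the slow troponin I, had 17.8, 9.21 and 19.2 CPM with glycerol and 26.5, 27.9 and 23.6 CPM with glycerol+melatonin (0.75 ± 0.26). Neither gene overlapped between the groups, nor did Tnnt1, the slow troponin T (0.67 ± 0.36), which makes 3 of 10 higher without overlap against 13.6% of all genes, whereas the stretch-responsive Ankrd2 did overlap (0.41 ± 0.17).

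The partners did not follow Myh7 in every library. In glycerol+melatonin mouse 3, Myh7 had its lowest level, 2.83 CPM, while Myl3, at 120 CPM, and Tnnt1, at 36.0 CPM, had their highest. In glycerol mouse 2, where Myh7 had 3.09 CPM, Myl3, Tnni1 and Tnnt1 were also at their lowest.

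**Figure D5:**
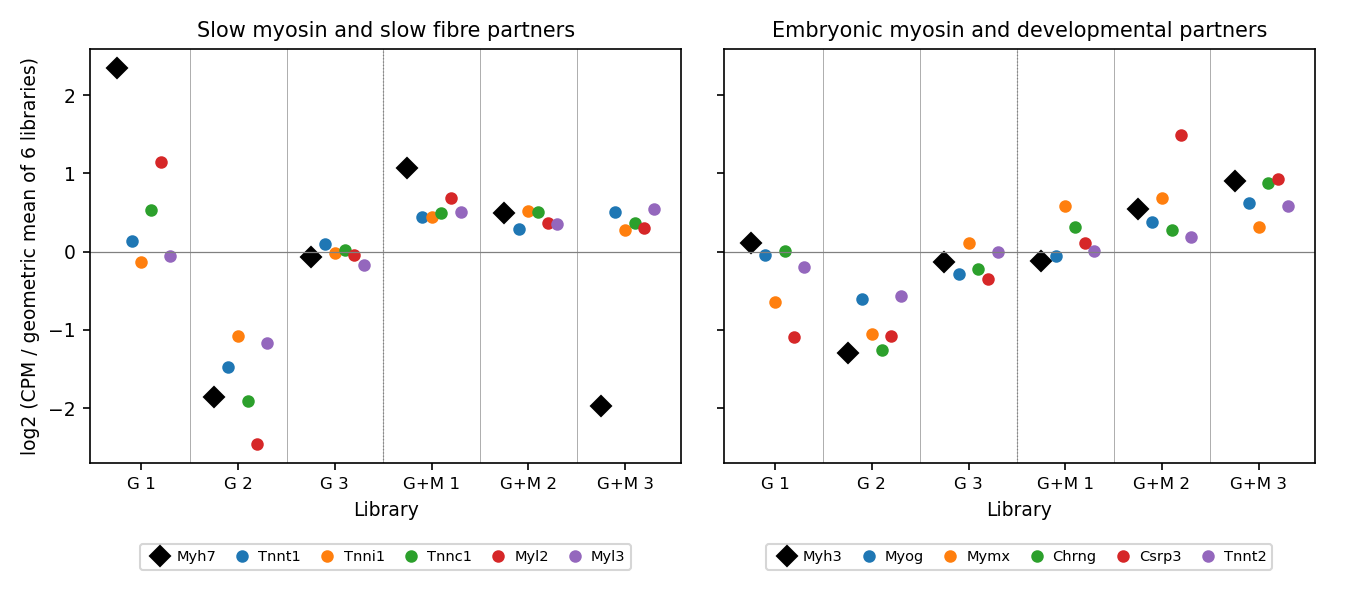
Log2 of CPM over the geometric mean of the 6 libraries (vertical axis) for Myh7 with 5 of the 10 slow fibre partners (left) and Myh3 with 5 of the 10 developmental partners (right), by library (G glycerol, G+M glycerol+melatonin). Myh7 is low in glycerol mouse 2 together with the 5 slow partners shown and low in glycerol+melatonin mouse 3 without them. Of the slow partners not shown, Tpm3 and Casq2 were not at their lowest in glycerol mouse 2. Atp2a2 was lowest there and next lowest in glycerol+melatonin mouse 3. Myh3 and the 5 partners shown are all below 0 in glycerol mouse 2 and all above 0 in glycerol+melatonin mice 2 and 3. These 5 are the developmental partners with the smallest edgeR p, so they were picked by the group difference. Of those not shown, Actc1 went the other way, highest in glycerol mouse 2 and lowest in glycerol+melatonin mouse 3.

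Fast fibre partners, which accompany Myh1, Myh2 and Myh4, gave no common direction. Of 12 tested, 7 were above 0 and 5 below, with a median of 0.04. In edgeR 0 passed and 2 had an unadjusted p under 0.05, and in DESeq2 and in limma-voom 0 passed and 3 did, beside 19.5%, 19.6% and 27.8% of all genes. The 2 in edgeR were Mybpc2, the fast myosin binding protein C of the thick filament, and Actn3, the Z-disc actinin of fast glycolytic fibres. Mybpc2 was at 4259, 4923 and 3998 CPM with glycerol and at 3279, 2722 and 1624 CPM with glycerol+melatonin, without overlap (-0.79 ± 0.29, edgeR adjusted p = 0.200). Actn3 was at 6122, 7480 and 5377 CPM with glycerol and at 5093, 3910 and 2893 CPM with glycerol+melatonin (-0.67 ± 0.28), also without overlap, where 12.5% of all genes were lower in this way. Both were highest in glycerol mouse 2 and lowest in glycerol+melatonin mouse 3. The fast calcium pump Atp2a1 (-0.49 ± 0.29) and the tropomyosin Tpm1 (-0.30 ± 0.27) overlapped.

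Developmental fibre partners are genes of fusing myoblasts, young fibres and unsettled nerve contacts, as Myh3 and Myh8 are. Of 10 tested, 9 were above 0, against 51.7% of all genes, and 1 below, with a median of 0.47. In edgeR 0 passed and 5 had an unadjusted p under 0.05 (19.5% of all genes). In DESeq2 (19.6%) and in limma-voom (27.8%) 6 did, and Csrp3 passed in both of these, with Mymx in DESeq2 alone. Of all genes, 5.01% passed in DESeq2 and 1.22% in limma-voom. Csrp3, a Z-disc LIM protein, was at 21.1, 21.1 and 35.2 CPM with glycerol and at 48.3, 126 and 85.4 CPM with glycerol+melatonin, without overlap (1.75 ± 0.35, edgeR adjusted p = 0.122). Mymx, the fusion peptide myomixer, was at 4.77, 3.59 and 8.04 CPM with glycerol and at 11.2, 12.0 and 9.30 CPM with glycerol+melatonin (0.99 ± 0.29). Chrng, the fetal acetylcholine receptor subunit, also did not overlap (0.91 ± 0.33). Of the 10, 4 were higher without overlap, against 13.6% of all genes. The 1 gene below 0, chosen after its values were seen, was the cardiac actin Actc1, which young fibres also express. Its level was 2782, 2906 and 2547 CPM with glycerol and 2326, 2196 and 1358 CPM with glycerol+melatonin. It was lower without overlap, as 12.5% of all genes were (-0.49 ± 0.25, edgeR adjusted p = 0.315).

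Myog, the myogenic factor of differentiating myoblasts, was at 33.4, 22.6 and 28.3 CPM with glycerol and at 33.1, 45.0 and 53.1 CPM with glycerol+melatonin (0.64 ± 0.22), overlapping in glycerol+melatonin mouse 1. Among genes with at least 1 CPM that are no members, Myog had the pattern most like that of Myh2, with a Pearson r of 0.996 of log2 CPM over the 6 libraries. That is a description over 6 points that share their libraries, and 242 of 12631 genes compared had an r over 0.9 with Myh2. The next were Alkbh2 and Zfp408 (0.992 each). For Myh4, whose r exceeded 0.9 with 928 genes, the most alike were Wdr7, Gaa and Ltv1 (0.997 to 0.998). The most alike to Myh1 were Rbl1, Amot and Amotl1, to Myh3 Rwdd3, Fbxo17 and Mcub, and to Myh8 Sh3bp2, E2f8 and Wipf1 (0.975 to 0.985 for these 9). Myh7 and Myh7b had few such genes (21 and 20 with an r over 0.9), led by Slc13a3, Fgfbp3 and Pcdhgb4 for Myh7 and Prpf18, Tbc1d12 and Wdr3 for Myh7b (0.955 to 0.990 for these 6).

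Regulators of fibre type are the transcription factors and cofactors that set which myosin gene a fibre uses. Of 19 tested, 5 were above 0 and 14 below (48.3% of all genes were below 0), with a median of -0.38 against 0.02 over all genes. In edgeR 0 passed and 7 had an unadjusted p under 0.05 (19.5% of all genes). In DESeq2 (19.6%), 7 did and 3 passed (Mafa and Maf lower, Mef2c higher), where 5.01% of all genes passed. In limma-voom (27.8%), 8 did and 0 passed, where 1.22% of all genes passed. Maf and Mafa are large Maf factors, known to induce the IIb gene Myh4. Mafa was at 21.8, 23.5 and 10.5 CPM with glycerol and at 7.67, 7.71 and 4.66 CPM with glycerol+melatonin (-1.48 ± 0.33, edgeR adjusted p = 0.132). Maf was at 121, 133 and 87.3 CPM with glycerol and at 69.6, 72.1 and 51.6 CPM with glycerol+melatonin (-0.82 ± 0.21, edgeR adjusted p = 0.141). Both were highest in glycerol mouse 2 and lowest in glycerol+melatonin mouse 3, as Myh4 was. The same held for Tbx15, Sox6 and Ppargc1a of this list, and 928 genes had an r over 0.9 with Myh4. A link of these factors to Myh4 was not tested. Neither overlapped between the groups, and 4 of the 19 regulators were lower in this way, against 12.5% of all genes.

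Mef2c, a MEF2 factor that activates muscle genes, was at 160, 127 and 73.9 CPM with glycerol and at 289, 280 and 206 CPM with glycerol+melatonin (1.10 ± 0.28, edgeR adjusted p = 0.142). It was the only regulator higher without overlap, 1 of 19, against 13.6% of all genes. Tbx15, a factor of glycolytic fibres, overlapped (-0.78 ± 0.28). The shared run and the MEF2 matches shown above are letters in the promoters, and binding was not measured here.

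Myosin chaperones and thick filament proteins fold the heavy chains and hold them in the filament. Of 13 tested, 4 were above 0 and 9 below, against 48.3% of all genes, with a median of -0.29. In edgeR 0 passed and 6 had an unadjusted p under 0.05, as in DESeq2 (0 and 6) and limma-voom (0 and 7), where 19.5%, 19.6% and 27.8% of all genes did. Myom2, an M-band protein of fast fibres, was at 1374, 1429 and 1133 CPM with glycerol and at 1087, 845.9 and 518.9 CPM with glycerol+melatonin (-0.68 ± 0.28). Mybph, a myosin binding protein, was higher without overlap (0.43 ± 0.17), as 13.6% of all genes were. Smyd1, the methyltransferase that assists myosin assembly, overlapped (-0.56 ± 0.23).

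Other class II myosin heavy chains make up the rest of the family in the table. Of 6 tested, 3 were above 0 and 3 below, with a median of -0.20. In edgeR 0 passed and 1 (the nonmuscle chain Myh14, -0.44 ± 0.19) had an unadjusted p under 0.05, with 0 and 2 in DESeq2 and 0 and 1 in limma-voom (19.5%, 19.6% and 27.8% of all genes in the same order of tools). Myh6, the heart alpha chain beside Myh7, had 12, 125 and 29 counts with glycerol and 25, 32 and 5 with glycerol+melatonin. Myh13, the extraocular chain next to Myh8 in the cluster, had 64, 299 and 74 counts with glycerol and 72, 114 and 93 with glycerol+melatonin. The highest library of both was glycerol mouse 2, as for Myh7b, while Myh7 was near its lowest there. Myh6 shared 22.6% of its 50-base windows with Myh7, and Myh13 8.45% with any member, so reads could be exchanged. Of the 5 heart muscle markers, Nppa, Nppb and Mybpc3 had no row tested, and Tnni3 lay between 0.668 and 1.98 CPM.

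Noncoding genes lie among the members on the other strand. Myhas, an antisense gene (chr11:67211256-67237573, minus strand) that reaches from inside Myh1 to just before Myh4, shares 515 exon bases with Myh1. It was at 59.8, 71.4 and 71.8 CPM with glycerol and at 89.4, 108.3 and 91.8 CPM with glycerol+melatonin. All 3 glycerol+melatonin libraries exceeded all 3 glycerol libraries, as for 13.6% of all genes, and the log2 fold change was 0.51 ± 0.16 (edgeR adjusted p = 0.173). Myh1 and Myh4, which it borders, had estimates below 0.

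The antisense gene 9430073C21Rik (chr11:67195680-67199234, minus strand) shares 237 exon bases with Myh2 and had the same order of groups as Myh2, with 5.41, 2.35 and 2.99 CPM with glycerol and 4.57, 7.71 and 23.2 CPM with glycerol+melatonin (1.72 ± 0.58, edgeR adjusted p = 0.188). The noncoding 2310065F04Rik between Myh3 and Myh2 shares no exon bases with a member (-0.31 ± 0.22). The sources used here do not state whether the counting used strand, so reads of Myh1 and Myhas, and of Myh2 and 9430073C21Rik, could be mixed where exons overlap. Myh7 overlaps 3 antisense genes with no row in the table (Mhrt, Gm29015 and Gm31251, with 484, 142 and 523 shared exon bases), and Myh7b shares 37 exon bases with Trpc4ap.

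The microRNAs hosted by Myh7b and Myh7 are shown with their seeds as part of the gene loci; small RNAs were not measured here. The mature sequences are from RefSeq (GRCm38.p6), with the seed, bases 2 to 8, in capitals. Mir499 lies within Myh7b on the plus strand and Mir208b within Myh7 on the minus strand, neither over annotated exons of its host.
mmu-miR-499-5p (chr2:155622893-155622913): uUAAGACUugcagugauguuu
mmu-miR-208b-3p (chr14:54975710-54975731): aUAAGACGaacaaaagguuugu

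Transcript length bears on the members, which are long. For each library a spline over transcript length was fitted to the deviations of log2 CPM from the mean of the libraries. It used the genes with a mean log2 CPM above 0. At the length of Myh4 the fitted deviations were 0.13, 0.14 and -0.02 with glycerol and -0.11, -0.06 and -0.08 with glycerol+melatonin, a difference that moved with the group. After a correction of each library for length, the log2 fold changes were -0.40 for Myh4, -0.17 for Myh1, 0.90 for Myh2, 0.98 for Myh3 and 0.29 for Myh8. In edgeR after this correction 0 of 7 members passed, where 7 of 16259 genes did. By an unadjusted p under 0.05 the count was 2 of 7 members, where 2701 of 16259 genes fell under that value. The isoform shares compare transcripts of like length within a library.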

How the data were processed

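Raw read counts of the 6 libraries were deposited by the authors as 1 table of Ensembl genes. Build mm10 and, among the tools, HISAT2 2.0 (aligner), StringTie 1.3.3b, bedtools 2.26.0, Trimmomatic 0.36 (read trimming), FastQC 0.11.2 and DESeq2 1.12.4 were used by the authors, per the submitters' processing notes. How reads were counted (tool, annotation, strand, reads that match several genes) is not given in the sources used. The deposited counts are whole numbers, and no gene totals under 28 over the libraries. Columns were matched to samples by treatment code and replicate number. Counting error is small at this depth for all members but Myh7b, and covers counting only.

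Members were found by symbol (16260 of 16289 identifiers had one, from GENCODE M21 on GRCm38, the assembly of mm10). The members and gene lists were chosen with earlier results of these data known. The test was the quasi-likelihood test of edgeR 4.0.16 in R 4.3.3 over the whole table with TMM factors, filterByExpr (16259 genes kept) and no covariate, with Benjamini-Hochberg adjustment over all genes and a threshold of 0.05. A standard error is the log2 fold change divided by the square root of F. Shares used the longest coding transcript and exact two-sided permutation over the 20 splits of 6 libraries. Correlations used log2 CPM with a prior count of 2. Coding sequences were aligned with MAFFT 7.526. No 2 libraries of a group were repeats of each other (chi-square of their counts over its degrees of freedom, 66.6 to 182).

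Named genes are all members, at most 4 genes of each list with values (those with the smallest p), the 3 genes most alike to each member (at least 1 CPM, no Gm, Rik or clone names), and noncoding neighbours; fibre, progenitor and heart markers are named as members of their lists. Of the genes this rule picks, 1 is not reported here. The other settings were RLE and upper quartile factors, library size alone, TMM without the members, other filters on low counts, DESeq2 1.42.0, limma-voom (limma 3.58.1), a replicate block, a threshold of 0.10, a length correction (a spline with 4 degrees of freedom per library), other lengths for shares, and leaving out each library. The scripts were tested on simulated counts.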

Additional observations from a re-analysis of the deposited data

How the results depend on the processing

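With 3 mice per group, the spread between mice sets the precision, and the exact test of a share cannot go below p = 0.1. The count of members that passed was 0 under every alternative run. At an unadjusted p under 0.05 it was 1 in edgeR, 3 in DESeq2 and 2 in limma-voom, beside 19.5%, 19.6% and 27.8% of all genes. Within edgeR it was 0 with the replicate block (2991 of 16259 genes) and without mouse 2 or mouse 3 of either group. It was 3 without glycerol mouse 1 (1940 of 16274 genes) and 3 without glycerol+melatonin mouse 1 (3315 of 16274 genes). Of 111 refitted member fold changes, 107 kept their direction and 4 did not, and the lowest adjusted p was 0.0978 (Myh2 in DESeq2). With limma-voom, Myh7 was at 0.10 in place of -0.75. Leaving out each mouse gave -1.34 to 1.03 for Myh7 (above 0 without glycerol mouse 1), -1.23 to 0.09 for Myh7b (0.0942 without glycerol mouse 2) and -0.01 to 0.39 for Myh8 (-0.0136 without glycerol mouse 2). The same ranges were -0.79 to -0.39 for Myh4, -0.48 to -0.19 for Myh1, 0.56 to 0.95 for Myh2 and 0.51 to 1.11 for Myh3. Of 86 recomputed share differences, counting the slow and Myh7b classes as the single genes they hold, 83 kept their direction. The 3 others were the share of Myh7 without glycerol mouse 1 and without glycerol+melatonin mouse 3 (-0.0435 to 0.0273 percentage points when each mouse was left out) and that of Myh7b without glycerol mouse 2 (-0.00172 to 0.000738). When each mouse was left out, the difference ranged from -8.47 to -2.85 percentage points for Myh4, 0.417 to 4.50 for Myh1, 0.141 to 0.332 for Myh8, 0.0875 to 0.238 for Myh3 and 0.229 to 0.570 for the developmental class, and from -0.70 to -0.30 for the members' part of all counts. The difference in the Myh2 share ranged from 1.40 to 3.43 percentage points when each mouse was left out, being smallest without glycerol+melatonin mouse 3. The number of genes passing in the whole table was 12, and 752 with DESeq2, 199 with limma-voom, 59 at a threshold of 0.10, 7 after the length correction (fewer, with the cause not tested) and 6 to 27 when each mouse was left out. Library size alone moved the median log2 fold change of all genes from 0.02 to 0.23, and the members' values relative to that median stayed close (Myh2 0.72 and 0.75). Myh7b had no value under the filter of 1 CPM in at least 3 libraries.

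The labels do not say that a replicate number pairs mice. The deviations of same-numbered mice correlated at -0.01, 0.00 and -0.05, and no sample correlated best with its own number. With 3 mice per group, such correlations cannot exclude a pairing. With the replicate number as a block, 0 genes passed in edgeR (2991 at an unadjusted p under 0.05), 0 of 7 members passed, and Myh2 was at 0.73 (edgeR adjusted p = 0.285).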

Other observations

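Other cell types of the injured muscle were followed by the marker lists beside the myosin heavy chains. The 5 fibro-adipogenic progenitor markers had a median log2 fold change of -0.71, with 3 below 0 and 2 above 0 (Cd34 0.19 and Ly6a 0.09). In edgeR 0 passed and 3 of 5 had an unadjusted p under 0.05, against 19.5% of all genes. In DESeq2 2 passed as lower (Dcn and Hsd11b1), where 5.01% of all genes passed. In limma-voom 0 passed, where 1.22% of all genes did. Dcn, the matrix proteoglycan decorin, was at 500.6, 822 and 646 CPM with glycerol and at 397, 380 and 345 CPM with glycerol+melatonin. The 5 tendon markers had a median of -0.57, and the collagen binding Fmod was at 244, 252 and 196 CPM with glycerol and at 68.5, 102 and 178 CPM with glycerol+melatonin. In edgeR 0 of these 5 passed and 2 had an unadjusted p under 0.05, against 19.5% of all genes. In DESeq2 Fmod passed as lower (adjusted p = 0.0352), where 5.01% of all genes passed. By the same tool 4 of 5 had an unadjusted p under 0.05, against 19.6% of all genes. In limma-voom 0 passed and 4 had such an unadjusted p, against 27.8% of all genes. Scx, the tendon transcription factor, chosen after its values were seen, was at 0.70 ± 0.32. The medians of the lists for macrophages (-0.30), fat cells (-0.43, 4 of 5 tested), Schwann cells (-0.44) and red cells (-0.19) were below 0. Those for muscle stem cells (-0.05), smooth muscle and pericytes (-0.01) and endothelium (0.06) were near 0. In these 7 lists 0 genes passed in edgeR, DESeq2 or limma-voom, where 0.0738%, 5.01% and 1.22% of all genes passed. By edgeR's unadjusted p under 0.05 the count was 1 in the Schwann cell list and 0 in the other 6, against 19.5% of all genes.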
